A study of Mus musculus with 6 samples.

Results

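The liver RNA of 2 lines of control mice was compared 28 days after partial hepatectomy, an operation that takes out several liver lobes and makes the lobes left behind regrow. The OGT control mice carried the genotype OGTfl/y and the OGA control mice OGAfl/fl, so neither control pool had the deletion for which its line was made. Of the 6 libraries of the series, 2 were set against each other, 1 per line, and 11765 of the 12027 rows of the count table were compared. A row was compared when it reached at least 1 CPM (counts scaled to a fixed library total) in either library. The 56 rows at 0 in both OGT columns were kept apart and are given at the end, and 206 further rows were under 1 CPM in both control libraries. All mice were male, of the strain C57BL/6 and 8 weeks old, and each library came from a pool with equal RNA from 3 mice. The other libraries were OGA control (OGAfl/fl) at 14 days, hepatocyte-specific OGA-KO (OGA-/-) at 14 and at 28 days, and hepatocyte-specific OGT-KO (OGT-/y) at 28 days. What drives the hepatocyte deletion, whether the controls carried or received it, the hour at which livers were taken and the feeding state are not given in the sources used here.

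OGT is the enzyme that attaches the single sugar O-GlcNAc to serine and threonine residues of proteins inside the cell, and OGA is the enzyme that removes it. A floxed allele is a gene flanked by recombination sites that is meant to work normally until a recombinase cuts it, and floxed mice without the deletion serve as the reference for their own knockout. Liver RNA differs between groups of healthy mice in several known ways. The male pattern of growth hormone release keeps genes such as the major urinary proteins high in males, the circadian clock and meals move metabolic genes through the day, and immune activity moves interferon-induced and acute-phase genes.

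With 1 pooled library per line there was no spread between replicates, so no test was made, and line, pool of mice and any difference in handling cannot be told apart. Levels are given in CPM scaled by TMM, a factor that corrects for differences in RNA composition. Each difference is the log2 ratio of OGT control over OGA control after adding a prior count of 2, so a positive value means higher in OGT control. Intervals are exact 95% Clopper-Pearson intervals of the ratio and cover counting error only. Genes are counted as higher or lower when they differed by at least 2-fold and reached 1 CPM in the higher library. The totals were 28971784 counts for OGA control and 21852873 for OGT control. As a scale for these differences, OGA control at 28 days was also set against OGA control at 14 days, a pair that shares the former library and differs in time after surgery. The Y-linked genes Ddx3y, Eif2s3y, Kdm5d and Uty were present in both libraries, with log2 ratios from -0.40 to -0.08, and Xist had no row. Albumin (Alb), the main plasma protein made by hepatocytes, stood at 59742 CPM in OGA control and 56283 CPM in OGT control. The T cell markers Cd3d, Cd3e and Trac, the B cell markers Cd79a, Ighm and Igkc and the fat cell marker Adipoq had no row, and the pancreatic markers Ctrb1, Pnlip and Cpa1 were at 0 in both libraries. Members of these lists that were compared were few: Cd4 had 86 counts in OGA control and 39 in OGT control (-0.93), the antibody joining chain Jchain 31 and 13 (-0.98), and the elastase gene Cela1 701 and 247 (-1.32). Plin4 (0.59) and Fabp4 (0.50), which fat cells express, were compared too, and the mesothelial marker Msln had 51 and 9 counts (-2.11).

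The controls of the 2 lines stood far further apart than the 2 time points of the OGA control line. In OGT control 556 genes were at least 2-fold higher, or 4.73% of the 11765 compared, and 657 were at least 2-fold lower, or 5.58%, which makes 1213 genes or 10.3% in all. Between the OGA controls of 28 and 14 days 109 of 11758 genes passed the same rule, or 0.927%. The median log2 ratio over all compared genes was 0.01 between the lines. The standard deviation of the log2 ratio over genes was 0.69 between the lines and 0.27 between the OGA controls. Pearson's r of log2 CPM was 0.951 for the lines and 0.993 for the OGA controls, taken across genes, which are no independent replicates. At least a 4-fold difference was held by 61 genes on the higher side and 158 on the lower side, and at least an 8-fold difference by 15 and 53. By TMM scaling, and among the rows of this table, the largest differences therefore lay on the lower side. Every row held at least 28 counts over the 4 OGA libraries, while some held 0 over the 2 OGT libraries. Genes counted mainly in the OGT line may therefore be missing from the higher side. The counting interval lay wholly beyond 2-fold for 234 higher and 402 lower genes.

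**Figure D1:**
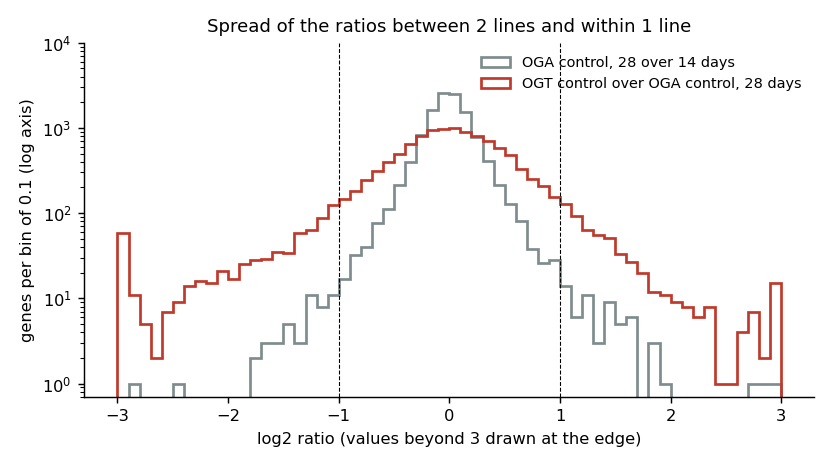
Number of genes (y axis, log scale) in bins of 0.1 of the log2 ratio (x axis), for OGT control over OGA control at 28 days (red, 11765 genes) and OGA control of 28 over 14 days (grey, 11758 genes), with dashed lines at 2-fold and values beyond 3 drawn in the outermost bins. The red distribution is the wider, with 1213 genes past the dashed lines against 109 for the grey one.

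The scaling set the balance of the counts. Dividing by library totals alone, without the TMM factors of 0.903 for OGA control and 1.06 for OGT control, adds 0.23 to every log2 ratio and gave 968 higher and 430 lower genes. By that scaling 69.2% of the genes past the rule were higher, against 45.8% by TMM. Lower genes within 0.23 of the 2-fold line are under 2-fold by that scaling, and of the genes described below these are Igf1, Hpx, Arntl, Bhlhe41, Acss2, Hmgcs1, Cyp27a1, Fabp1, Nr1i3, Egr1, Pitx3 and Pdzd7. Ratios are given below relative to the TMM scaling.

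Level mattered for the share of genes past the rule. Among genes with 1 to 5 CPM in the higher library 18.99% of 2027 differed by at least 2-fold, from 5 to 50 CPM 8.70% of 6549, and at 50 CPM or more 8.09% of 3189. The same bins held 2.77%, 0.447% and 0.540% for the OGA controls. In the highest bin 72 genes were higher and 186 lower in OGT control. Set against all 4 OGA libraries, OGT control lay above every one of them for 38.1% of the compared genes and below every one for 37.4%, whatever the size of the difference. Of the 556 higher genes 535 were above all 4 OGA libraries, and of the 657 lower genes 643 were below all 4. At least a 2-fold distance from each of the 4 was kept by 202 of the higher genes and 427 of the lower genes.

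**Figure D2:**
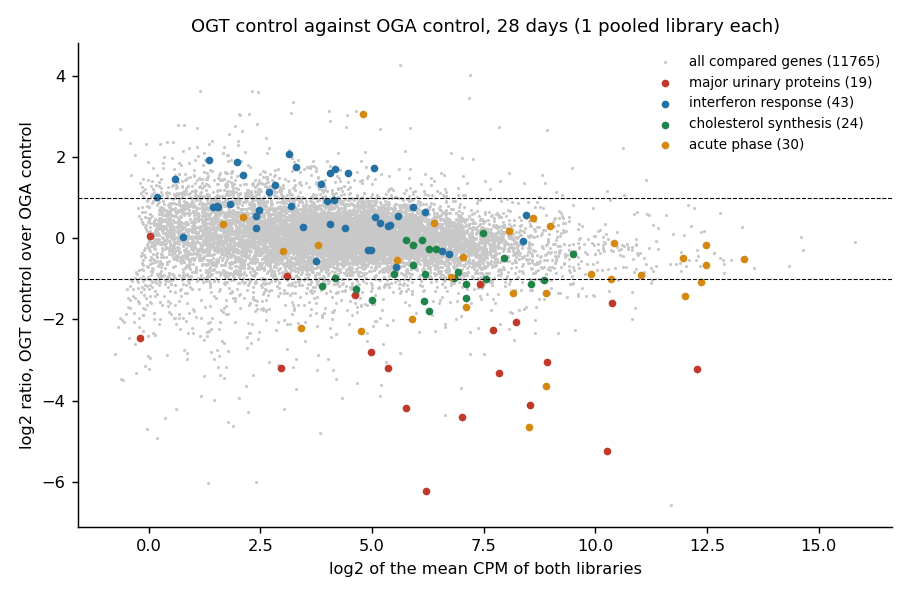
Log2 ratio of OGT control over OGA control (y axis) against the log2 of the mean CPM of both libraries (x axis) for 11765 genes (grey), with 4 gene lists in colour and dashed lines at 2-fold. Major urinary proteins (red) and acute-phase genes (orange) reach far below the lower line, cholesterol synthesis genes (green) gather around it, and interferon response genes (blue) lie mostly above 0.

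Gene groups are described by how many members passed the rule and by their median, to be read beside the 4.73% higher, the 5.58% lower and the median of 0.01 over all compared genes. The groups at the extremes of the plot of gene lists were the major urinary proteins, the carboxylesterases and cholesterol synthesis on the lower side, and the Kupffer cell and interferon genes on the higher side.

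**Figure D3:**
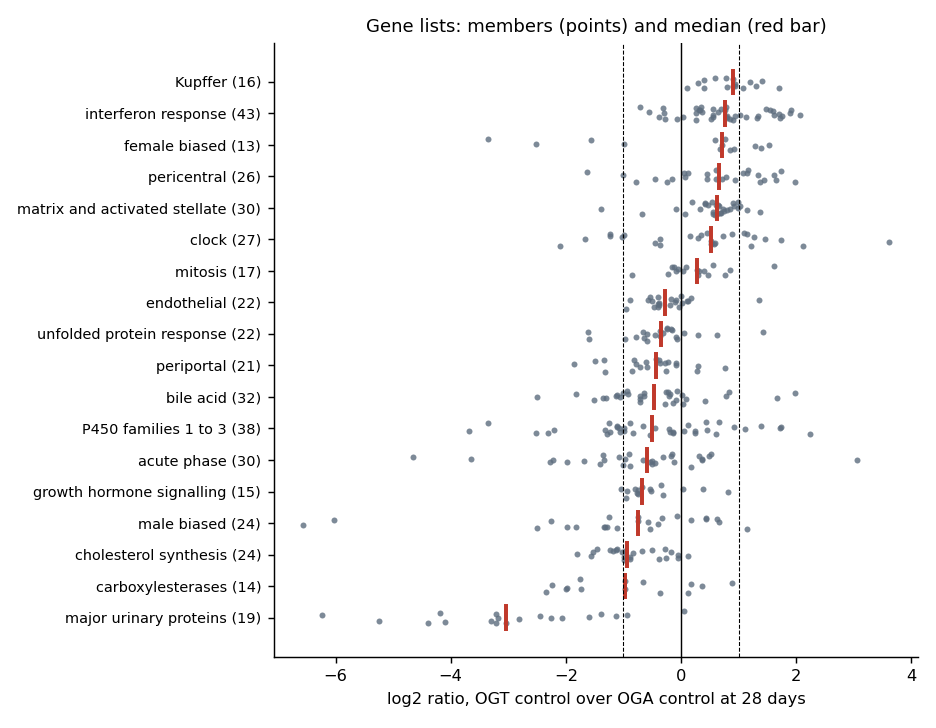
Log2 ratio of OGT control over OGA control (x axis) for each compared member (points) of 18 gene lists (y axis, number of members in brackets), with the median as a red bar and dashed lines at 2-fold. Medians run from -3.04 for the major urinary proteins to 0.90 for the Kupffer list.

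The major urinary proteins (Mup) are small pheromone-binding proteins that the liver secretes into urine in large amounts, far more in males than in females, under the control of growth hormone. All 20 Mup rows together took 1.55% of the counts in OGA control and 0.236% in OGT control. The same share was 0.967% to 1.55% across the 4 OGA libraries and 0.0253% in OGT-KO. Of 19 compared members 17 were at least 2-fold lower, none was higher, 16 lay below all 4 OGA libraries against 37.4% of all genes, and the median log2 ratio was -3.04. Mup3 stood at 9011 CPM in OGA control and 968 CPM in OGT control, a log2 ratio of -3.22 (interval -3.24 to -3.20). Its level was 7504 CPM in OGA control of 14 days, 6407 and 5426 CPM in OGA-KO at 14 and 28 days, and 62.9 CPM in OGT-KO. OGT control was below all 4 OGA libraries, and OGT-KO was lower still.

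Mup9 and Mup7 had the lowest ratios of the family. Mup9 had 3823 counts in OGA control and 43 in OGT control, a log2 ratio of -6.23 (-6.76 to -5.86), and 115 to 388 CPM in the OGA libraries. Mup7 stood at 2386 CPM against 62.9 CPM (-5.24), with 1165 to 1824 CPM in the other 3 OGA libraries. Mup17 was at 698 CPM against 40.8 CPM (-4.10). Mup1 (-4.40) and Mup12 (-4.19) were also among the 12 lowest ratios of all genes at 10 CPM or more. The Mup genes vary between pools on their own: 8 of the 19 passed the 2-fold rule between the OGA controls, where the family median was 0.28, and Mup1 was 106 CPM in OGA control of 14 days against 248 CPM at 28 days. Set against the 14-day OGA control, the family median was -2.02. Mup genes are near-identical copies, so how the authors' counting split reads among them is uncertain and the family share is the firmer value.

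**Figure D4:**
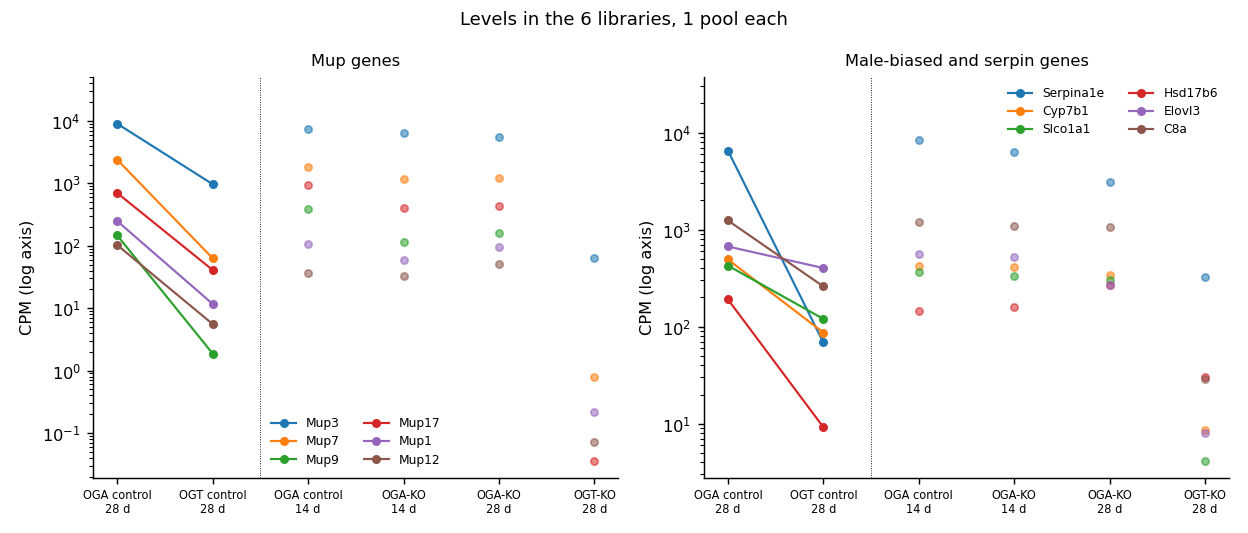
CPM (y axis, log scale) of 6 Mup genes (left) and of 6 male-biased or serpin genes (right) in the 6 libraries, 1 pool each, with lines joining the 2 control libraries of 28 days and paler points for the others; Mup9, at 0 in OGT-KO, has no point there. OGT control lies below the 4 OGA libraries for each gene but Elovl3, whose 402 CPM exceed the 272 CPM of OGA-KO at 28 days.

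Other male-biased liver genes were lower in part. Of 24 members compared 11 were at least 2-fold lower, 1 was higher, and the median was -0.74, against 0.13 between the OGA controls. Serpina1e, Ces3a, Slco1a1 and Cspg5, described further on, are among the lower members. Cyp7b1, an enzyme that hydroxylates oxysterols and steroids, stood at 493 CPM in OGA control and 87.0 CPM in OGT control (-2.50, -2.57 to -2.43), with 345 to 423 CPM in the other OGA libraries. C8a, the alpha chain of complement component C8, was 1242 CPM against 259.8 CPM (-2.26). Both genes lay below all 4 OGA libraries in OGT control. Hsd17b6, an enzyme of androgen metabolism outside this list, had 5004 counts in OGA control and 213 in OGT control (-4.36). The male-biased genes Cyp2d9 (0.66), Hsd3b5 (-0.07) and Selenbp2 (1.14) did not share that direction or size, and Selenbp2 was the 1 higher member, at 0.27 against the 14-day OGA control. Hsd3b5 turns positive by library totals.

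Of 28 listed female-biased genes 13 were compared. Of these 3 were higher and 3 lower, 9 had a ratio above 0, and the median was 0.71. Cyp17a1 (1.39), a steroid 17-hydroxylase, and Acot3 (1.28), an acyl-CoA thioesterase, were on the higher side with Atp6v0d2 (1.54), each on few counts, and Cyp17a1 was at -0.13 against the 14-day OGA control. The female-biased Cyp2c69 (-3.36) and Cyp2c40 (-2.52), cytochrome P450 enzymes with close relatives, were on the lower side with Nipal1 (-1.56).

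Genes of growth hormone signalling were lower by a small amount. Of 15 members 1 passed the rule, 12 lay below all 4 OGA libraries against 37.4% of all genes, and the median was -0.68. Igf1, the growth factor that the liver secretes in response to growth hormone, was 696 CPM in OGA control and 338 CPM in OGT control (-1.04). As the 1 gene of this list past the rule, it was under 2-fold by library totals (-0.82) and against the 14-day OGA control (-0.96). It ranged from 618 to 657 CPM in the other 3 OGA libraries and was 169 CPM in OGT-KO. Stat5b, the transcription factor that carries the male pulse signal, was 103 CPM against 54.2 CPM (-0.93), and the receptor Ghr had a ratio of -0.35. Cish, an inhibitor induced by the same signal, stood on the other side at 0.82, and its 2 OGA control libraries differed by more, 38.3 CPM at 14 days against 17.5 CPM at 28 days.

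The alpha-1-antitrypsin genes (Serpina1), which encode the main protease inhibitor of plasma, were unequal within the family. Serpina1e had the lowest ratio of all compared genes, with 170833 counts in OGA control and 1590 in OGT control (-6.56, -6.64 to -6.49). Its level was 6527 CPM in OGA control, 8478 CPM at 14 days, 6293 and 3076 CPM in OGA-KO at 14 and 28 days, 68.9 CPM in OGT control and 323 CPM in OGT-KO. Both OGT libraries lay below all 4 OGA libraries, and OGT control was the lowest of the 6. The ratios of the others were -1.71 for Serpina1a, -0.82 for Serpina1c, -0.54 for Serpina1b and -0.13 for Serpina1d, which turns positive by library totals. All 5 rows together took 1.96% of counts in OGA control and 0.974% in OGT control, and splitting of reads among these copies is uncertain.

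Acute-phase genes, which the liver makes in response to inflammatory cytokines, were lower for 10 of 30 members and higher for 1, with a median of -0.60. The serum amyloid genes differed most, but they also differed within the OGA line. Saa2 stood at 702 CPM in OGA control and 27.9 CPM in OGT control (-4.65), while OGA control of 14 days had 95.8 CPM. Saa1 was 886 CPM against 70.4 CPM (-3.65) and 329.5 CPM at 14 days. In OGA-KO the values were 53.8 CPM at 14 days and 646 CPM at 28 days for Saa2, so both OGA libraries of 28 days were high and both of 14 days low. OGT control was below all 4, and its distance from the 14-day OGA control was -1.78 for Saa2 and -2.22 for Saa1. Lcn2, an iron-binding protein of inflammation, was 94.4 CPM against 23.9 CPM (-1.98), but against the 14-day OGA control its ratio was -0.33, under 2-fold.

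The abundant plasma proteins haptoglobin and hemopexin differed less within the OGA line, and other members lay near or above 0, such as Serpina3m (0.49), Apcs (0.36) and the fibrinogen chain Fgb (-0.17, positive by library totals). Haptoglobin (Hp), which binds free haemoglobin, was 5962 CPM in OGA control and 2237 CPM in OGT control (-1.41, -1.43 to -1.40), with 4389 to 7596 CPM in the other OGA libraries and 2159.5 CPM in OGT-KO. Hemopexin (Hpx), which binds free haem, was 7151 CPM against 3384 CPM (-1.08). Against the 14-day OGA control its ratio was -0.97. Metallothioneins bind zinc and copper and respond to metals, glucocorticoids and inflammation. Mt1 was 44.5 CPM against 9.10 CPM (-2.28) and Mt2 17.5 against 3.68 CPM (-2.22), both below all 4 OGA libraries. The exception was Hamp2, the second gene of the iron hormone hepcidin, at 5.88 CPM in OGA control and 49.6 CPM in OGT control (3.06). Other genes of iron handling split: Hamp, a close copy of Hamp2, was at 0.18, the transferrin receptors Tfrc at 1.06 (0.94 against the 14-day OGA control) and Tfr2 at -1.68.

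Interferon-induced genes were higher as a group. Of 43 members 14 were at least 2-fold higher, none was lower, the median was 0.76, and 33 lay above all 4 OGA libraries against 38.1% of all genes. Between the OGA controls none of the 43 passed and the median was -0.12, and against the 14-day OGA control that of OGT control was 0.46. Ifit1, a sensor of foreign RNA, was 8.25 CPM in OGA control and 25.3 CPM in OGT control (1.61, 1.39 to 1.85), with 6.31 to 10.8 CPM in the other OGA libraries and 10.7 CPM in OGT-KO. Ifit2 had 43 counts against 145 (1.89), and the chemokine Cxcl9, which attracts T cells and is induced by interferon gamma, 117 against 351 (1.75). The highest ratios were those of Ifi27l2b (2.08) and Ifi27l2a (1.92), and Ifi27l2a was at 0.93 against the 14-day OGA control. The signal carriers themselves stood nearer to 0, with Irf7 at 0.37 and Irf9 at 0.31, while Ifi27 (-0.72) and Xaf1 (-0.55) were on the lower side. Of 26 antigen presentation genes 1 was higher, the class I gene H2-Q1 (1.33), and the median was 0.38.

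Markers of Kupffer cells, the resident macrophages of the liver, were all above 0. Of 16 compared members 5 were at least 2-fold higher, and 14 lay above all 4 OGA libraries against 38.1% of all genes. The median was 0.90, against -0.01 between the OGA controls. The summed level of the list was 573 CPM in OGT control and 317 to 384 CPM across the 4 OGA libraries. In bulk tissue, more cells of a type and more RNA per cell cannot be told apart. Cd68, a lysosomal protein of macrophages, was 5.20 CPM in OGA control and 17.1 CPM in OGT control (1.70, 1.43 to 2.01), and 4.48 to 5.01 CPM in the other OGA libraries. The defining markers Vsig4, Cd5l and Clec4f had ratios of 1.31, 1.08 and 0.79, and Cd5l was at 0.91 against the 14-day OGA control. In OGT-KO Cd68 was 85.1 CPM and Vsig4 66.8 CPM, above OGT control. Whether the macrophage markers and the interferon genes came from the same cells was not tested.

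Of 9 compared genes listed for macrophages recruited to damaged liver 2 were higher and 1 lower, and 8 had a ratio above 0. Above all 4 OGA libraries lay 6, against 38.1% of all genes, and the median was 0.44. Lgals3, a galectin, was 1.87 CPM against 16.4 CPM (3.08) and Itgax, the integrin CD11c, had 10 against 53 counts (2.37). Fabp5, a fatty acid binding protein, went the other way with 645 against 58 counts (-3.25), and its other 3 OGA values were 16.9 to 20.2 CPM.

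Matrix and activated stellate cell genes lay mostly above 0 with few past the rule. Stellate cells store vitamin A and make the collagens of a scar when activated. Of 30 members 3 were at least 2-fold higher and 1 lower, and 27 had a ratio above 0. Above all 4 OGA libraries lay 20, against 38.1% of all genes. The median was 0.63, against -0.21 between the OGA controls. Thbs1 (1.37), Col6a3 (1.15) and Loxl2 (1.02) were the higher members, and Col6a3 and Loxl2 were under 2-fold against the 14-day OGA control. The fibrillar collagens Col1a1 and Col3a1 were at 0.86 and 0.996, each just short of the rule or under it, and Mmp14, a membrane protease that cuts collagen, was lower (34.0 against 12.9 CPM, -1.39). Lrat, the enzyme with which quiescent stellate cells store vitamin A, was higher (7.22 against 20.5 CPM, 1.49), while the other defining stellate markers Reln and Colec11 were at 0.60 and 0.13. Among 15 cholangiocyte and progenitor genes Cd24a, Epcam, Bicc1 and Ehf were higher (1.11 to 1.18), each with at most 184 counts, the value of Bicc1 in OGT control. Cd24a was at 0.66 against the 14-day OGA control, and with a prior count of 10 Epcam (0.99) and Ehf (0.89) were under 2-fold. Krt7 was at -0.05 (positive by library totals). Of 22 endothelial genes 1 was higher, Lyve1 (1.35, and 0.85 against the 14-day OGA control), and none passed the rule on the lower side. Of the 22, 17 had a ratio below 0, with Tie1 (-0.95) and Gpr182 (-0.89) the furthest. Below all 4 OGA libraries lay 14, against 37.4% of all genes, and the median was -0.28.

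The circadian clock of the liver is a loop in which the activators BMAL1 (gene Arntl), CLOCK and NPAS2 bind E-boxes and drive their own repressors, the PER, CRY and REV-ERB (Nr1d1, Nr1d2) proteins and CHRONO (gene Ciart). REV-ERB proteins in turn repress Arntl through elements with a core of AGGTCA, and the factors DBP and NFIL3 act on D-boxes. Of the 27 clock genes 23 had an entry in the RefSeq promoter table (GRCm38.p6), and 7 of these held an E-box, spelled CACGTG, in the 250 bases before a start. The sequences of Ciart, the clock gene with the highest ratio, and of the first Per1 entry, which holds 3 kinds of motif, are shown because they display the letters searched. Capitals mark these 6 letters, the REV-ERB core and the D-box TTATGCAA on either strand, the core appearing as its complement TGACCT in Per1.
Ciart, chr3:95882229-95882478, minus strand: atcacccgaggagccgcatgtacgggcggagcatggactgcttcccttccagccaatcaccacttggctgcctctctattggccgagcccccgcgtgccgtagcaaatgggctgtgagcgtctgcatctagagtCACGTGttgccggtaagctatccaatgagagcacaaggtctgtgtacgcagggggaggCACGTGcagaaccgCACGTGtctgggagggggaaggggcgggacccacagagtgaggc
Per1, chr11:69098699-69098948, plus strand: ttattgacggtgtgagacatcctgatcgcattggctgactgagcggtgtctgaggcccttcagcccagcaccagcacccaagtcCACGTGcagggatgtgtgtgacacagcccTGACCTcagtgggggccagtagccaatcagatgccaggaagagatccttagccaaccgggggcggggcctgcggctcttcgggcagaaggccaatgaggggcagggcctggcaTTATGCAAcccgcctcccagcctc
Ciart held 3 E-boxes and Per1 held 1 E-box, 1 AGGTCA and 1 D-box. Of 32851 promoter windows of the same length 6.02% held CACGTG, 14.0% AGGTCA and 0.694% TTATGCAA, and no motif overlapped another in these sequences. A match describes the letters and not binding.

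Clock activators leaned to the lower and repressors to the higher side in OGT control. Among the 5 activators 2 were lower and none higher, and among the 10 repressors 5 were higher and 1 lower, with medians of -0.37 and 0.94. Over all 27 clock genes 8 were higher and 5 lower. Ciart had 18 counts in OGA control and 215 in OGT control (3.62, 3.06 to 4.54). Npas2 was 13.9 CPM against 3.16 CPM (-2.11), and Arntl 32.4 against 13.8 CPM (-1.22). Per1 was 13.3 CPM against 44.9 CPM (1.75), Per2 was at 1.26, Nr1d2 at 1.15 and Cry1 at -0.99. The repressor Bhlhe41 was lower (-1.03), on 60 and 25 counts. Among the output factors Dbp was 17.7 CPM against 49.1 CPM (1.47) and Nfil3 68.0 against 29.03 CPM (-1.23). Of 8 output targets 2 were higher and 1 lower, and Wee1, a kinase that holds back mitosis, was at 2.13.

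The OGA libraries themselves spread widely for these genes. Of the 27 clock genes 4 lay above all 4 OGA libraries and 3 below them, against 38.1% and 37.4% of all genes, and OGA-KO at 28 days lay beyond OGT control for several. In that library Ciart was 21.0 CPM, Dbp 156 CPM, Per1 55.9 CPM, Npas2 2.75 CPM and Arntl 10.2 CPM. In OGA control of 14 days Ciart was 0.939 CPM, Dbp 6.37 CPM, Per1 22.9 CPM and Npas2 8.04 CPM, and against that library Per1 (0.97), Arntl (-0.83), Nfil3 (-0.66) and Bhlhe41 (-0.30) of OGT control were under 2-fold. The hour of sampling is not given in the sources used here and its part in these values was not tested.

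**Figure D5:**
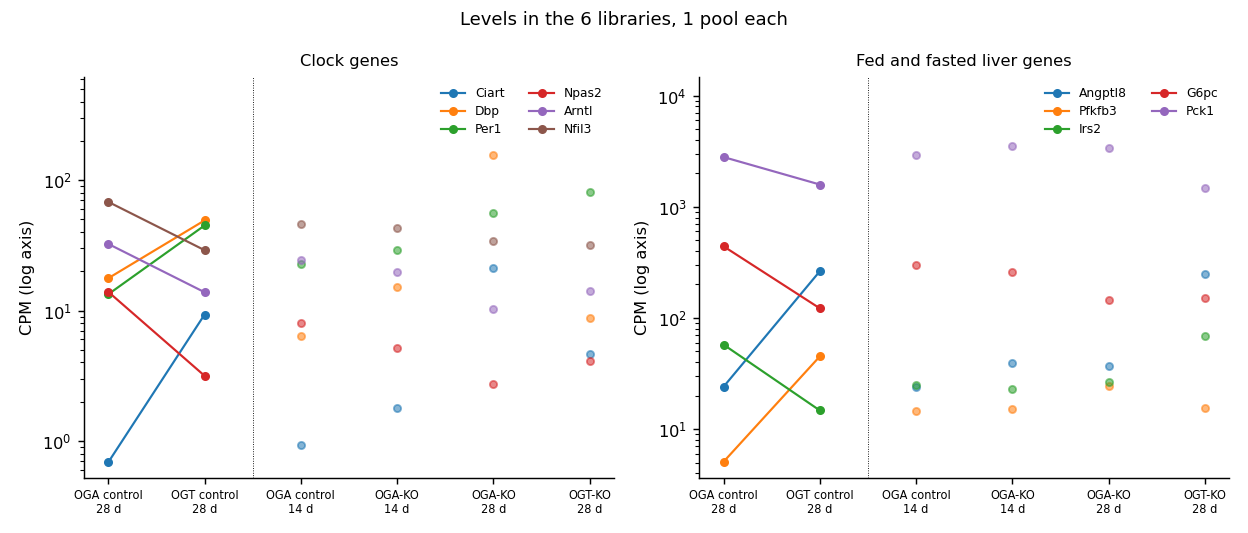
CPM (y axis, log scale) of 6 clock genes (left) and 5 genes of the fed or fasted liver (right) in the 6 libraries, 1 pool each, with lines joining the 2 control libraries of 28 days and paler points for the others. Among the clock genes OGA-KO of 28 days reaches or passes OGT control for Ciart, Dbp and Per1, whereas Angptl8 of OGT control (263 CPM) is above the 4 OGA libraries (23.8 to 38.9 CPM).

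Genes that respond to meals differed in both directions. Rgs16, a regulator of G protein signalling that follows feeding and the clock in liver, had the highest ratio among genes at 10 CPM or more, with 126 counts in OGA control and 2183 in OGT control (4.27, 4.04 to 4.57). Its other values were scattered, 0.653 CPM in OGA control of 14 days, 4.26 and 35.4 CPM in OGA-KO at 14 and 28 days and 2.97 CPM in OGT-KO, against 94.6 CPM in OGT control. Angptl8, a secreted inhibitor of lipoprotein lipase that is induced by feeding, was 24.03 CPM in OGA control and 263 CPM in OGT control (3.45). Both OGT libraries were high for Angptl8 (249 CPM in OGT-KO) and all 4 OGA libraries low. Pfkfb3, which makes an activator of glycolysis, was 5.08 CPM against 45.1 CPM (3.13), and 14.6 to 24.7 CPM in the other OGA libraries.

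Genes of glucose handling and lipid synthesis followed no single direction. Irs2, an adaptor of the insulin receptor that is high in fasting, was 57.6 CPM against 14.7 CPM (-1.96) and -0.77 against the 14-day library. G6pc, the last enzyme of glucose release, was 441 CPM against 122 CPM (-1.85), with 145 to 298 CPM in the other OGA libraries. Pck1, which feeds gluconeogenesis, was at -0.82, whereas Ppargc1a, its coactivator, was at 1.09, and at 0.72 against the 14-day library. Over 19 genes listed for the response to fasting or feeding 2 were higher and 4 lower with a median of -0.03, which turns positive by library totals and is 0.29 against the 14-day OGA control. That list mixes genes high in fasting, such as Irs2, with genes induced by feeding, such as Angptl8, so its median gives no direction of response. Over 20 lipogenesis genes 2 were higher, among them the lipogenic regulator Thrsp (1.42), 1 was lower, the acetyl-CoA synthetase Acss2 (-1.03, and -0.85 against the 14-day library), 12 lay above all 4 OGA libraries against 38.1% of all genes, and the median was 0.33. Fasn, the fatty acid synthase, was at -0.03 (positive by library totals).

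Genes of cholesterol synthesis were lower together. Of 24 members 9 were at least 2-fold lower, none was higher, 23 lay below all 4 OGA libraries against 37.4% of all genes, and the median was -0.93. Between the OGA controls none passed and the median was -0.28. The summed level of the list was 2596 CPM in OGT control, 4324 to 5140 CPM across the 4 OGA libraries and 1257 CPM in OGT-KO. Tm7sf2, a sterol reductase, was 120.2 CPM in OGA control and 34.4 CPM in OGT control (-1.80, -1.92 to -1.69), with 124 to 133 CPM in the other OGA libraries. Nsdhl (-1.55), Idi1 (-1.52) and Cyp51 (-1.46), enzymes of the middle and late steps, followed with similar values. Hmgcs1, which opens the pathway, was 521 CPM against 237 CPM (-1.14).

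Bile acid synthesis genes lay mostly on the lower side, with Cyp7a1 as the exception. Of 14 synthesis genes 6 were lower and 1 higher with a median of -0.82, and of 18 transport and regulation genes 3 were lower and 1 higher with a median of -0.16, which turns positive by library totals and is 0.01 against the 14-day OGA control. Cyp7a1, the rate-limiting enzyme of the classic pathway of bile acid synthesis, was 52.5 CPM in OGA control and 208 CPM in OGT control (1.98, 1.90 to 2.07), and 46.4 to 112 CPM in the other OGA libraries. Cyp7b1, given above, and Cyp27a1 (-1.01), enzymes of the alternative pathway, and Cyp8b1 (-0.71), which makes cholic acid, were on the lower side. Among the transporters Slco1a1, an uptake carrier of sinusoidal membranes that is high in males, was 426 CPM against 120.3 CPM (-1.82). Abcc4, an export pump, was higher on 73 and 208 counts (1.66), and Fgfr4, the receptor through which the gut hormone FGF15 represses Cyp7a1, was lower (-1.30).

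Among targets of PPARA, the nuclear receptor of fatty acids, Cyp4a14 and Cyp4a31 had the highest ratios. Other Cyp4a genes did not follow, with Cyp4a10 at 0.44. Of 28 members 5 were higher and 2 lower and the median was 0.28. Cyp4a14, a fatty acid omega-hydroxylase, was 16.8 CPM in OGA control and 277 CPM in OGT control (4.03, 3.90 to 4.18), 21.6 to 48.1 CPM in the other OGA libraries and 122 CPM in OGT-KO. Both OGT libraries lay above the 4 OGA libraries. Cyp4a31 was also higher (3.14) while its near copy Cyp4a32 was lower (-1.90), and reads of these copies may have been split between them. Vnn1, a pantetheinase, was higher (1.63), and Fabp1, the fatty acid binding protein of hepatocytes, was lower (3319 against 1549 CPM, -1.10). Cpt1a (0.32), the gate of mitochondrial fatty acid oxidation, was well under 2-fold. Apoa5, an apolipoprotein that lowers plasma triglyceride, was 1042 against 2162 CPM (1.05). The secreted regulator Tsku was 60.1 CPM against 400.1 CPM (2.73).

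The liver lobule is zoned, with gluconeogenesis and urea synthesis around the portal vein and glutamine synthesis and drug oxidation around the central vein. Of 26 pericentral genes 10 were higher and 2 lower, 20 had a ratio above 0, and the median was 0.66, and of 21 periportal genes none was higher and 4 were lower with a median of -0.44. The medians of both lists between the OGA controls were -0.02 and 0.06. Aldh1a1, a retinaldehyde dehydrogenase, was 1201 CPM in OGA control and 3265 CPM in OGT control (1.44), with 1026 to 1186 CPM in the other OGA libraries. Cyp2a5, which oxidises coumarin, was 328 CPM against 1093 CPM (1.74), and Oat, a mitochondrial aminotransferase, 764 against 1707 CPM (1.16). Oat was under 2-fold against the 14-day OGA control (0.89). Glul, the glutamine synthetase of the innermost pericentral cells, was at 0.93, and Cyp2e1, the ethanol-oxidising P450, at 0.62.

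Some pericentral genes answer to Wnt signals from the central vein. Those named here lay on both sides of 0, and all but Notum were chosen after their values were seen. Sp5 was at 1.15 (and 0.95 against the 14-day OGA control), Lgr5 at 0.71, Znrf3 at 0.61, Nkd1 at 0.45 and Rnf43 at 0.13. Axin2 was at -0.16 (positive by library totals), Tbx3 at -0.24 and Notum, a secreted Wnt inhibitor, was 48.4 CPM against 15.6 CPM (-1.63). On the periportal side Ftcd (-1.499) and Uroc1 (-1.34), enzymes of histidine breakdown, and Cyp2f2 (-1.33) were lower. Cyp2f2 stood at 2569.8 CPM in OGA control, 1025 CPM in OGT control and 2281 to 2486 CPM in the other OGA libraries. Cps1, the first enzyme of the urea cycle, was at 0.29.

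Enzymes of drug metabolism differed in both directions, with the larger values on the lower side. Of 38 cytochrome P450 genes of families 1 to 3 there were 5 higher and 13 lower and the median was -0.50, against 0.15 between the OGA controls and -0.22 for OGT control against the 14-day OGA control. Cyp2c67 was 237 CPM in OGA control and 18.5 CPM in OGT control (-3.68), with 157 to 187 CPM in the other OGA libraries, while its relative Cyp2c39 was at 2.25. The Cyp2c genes are close relatives, and reads may have been split among them. Of 43 conjugation genes 6 were higher and 7 lower. The sulfotransferase Sult5a1 was 37.7 CPM against 2.38 CPM (-3.94) and held 39.0 to 40.7 CPM in the other OGA libraries, whereas the sulfotransferase Sult1d1 was 63.2 against 246 CPM (1.96).

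Carboxylesterases, which hydrolyse ester drugs and lipids, were lower for 6 of 14 members and higher for none, with a median of -0.97. Ces3a was 2900.2 CPM in OGA control and 734 CPM in OGT control (-1.98), 2407 to 2699.9 CPM in the other OGA libraries and 16.2 CPM in OGT-KO. Ces3b (-2.35), Ces2a (-2.25) and Ces1e (188 against 47.0 CPM) were in the same range. Below all 4 OGA libraries lay 10 of the 14, against 37.4% of all genes. Nr1i3, the drug-sensing receptor CAR, was 271 CPM against 129.2 CPM (-1.07), but -0.66 against the 14-day OGA control. It was the 1 lower member of 18 hepatocyte transcription factors, whose median was 0.02.

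Genes of the NRF2 response, which protects from oxidants, were higher for 6 of 23 members and lower for 1, with a median of 0.14. Osgin1, an oxidant-induced growth inhibitor, was 556 CPM in OGA control and 2593 CPM in OGT control (2.22), 363 to 490.1 CPM in the other OGA libraries and 2386 CPM in OGT-KO. The 2 OGT libraries were high and the 4 OGA libraries low. The glutathione transferases Gsta1 (2.29) and Gstm3 (1.62) and the sulfiredoxin Srxn1 (1.49) were higher too, while the classic target Nqo1 was at 0.10 and Aox1, an aldehyde oxidase, was lower (-2.18).

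In the integrated stress response 4 of 18 genes were higher: Nupr1, a stress-induced chromatin protein (20 against 233 counts, 3.59), the proline and serine synthesis enzymes Aldh18a1 (2.23) and Psat1 (2.01), and the pseudokinase Trib3 (1.89). Atf4 and Ddit3, the transcription factors of that response, were at -0.01 and 0.06. Of 22 unfolded protein response genes 1 was higher and 2 lower, 18 had a ratio below 0, 15 lay below all 4 OGA libraries against 37.4% of all genes, and the median was -0.34, against -0.01 between the OGA controls. The chaperone factor Sdf2l1 was 49.9 CPM against 16.2 CPM (-1.62), with 17.9 CPM in OGA-KO at 28 days, Dnajb9 was higher (1.42), and the central chaperone Hspa5 was at 0.30. Of 15 glucocorticoid-induced genes 3 were higher and 3 lower. Fkbp5, which binds the glucocorticoid receptor complex, was 19.8 CPM against 87.7 CPM (2.14), and 20.9 to 61.7 CPM in the other OGA libraries. The small heat shock protein Hspb1 was 18.5 CPM against 4.33 CPM (-2.07).

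Cell cycle genes were low in both controls at this time after surgery. The summed level of the mitosis list was 43.5 CPM in OGT control and 27.3 to 37.3 CPM across the OGA libraries, against 299 CPM in OGT-KO. Of its 17 compared members 1 was higher, Ect2 (31 against 87 counts, 1.61), and the proliferation marker Mki67 was at 0.55. Of 27 DNA replication genes Rrm2 (1.57) and Mcm6 (1.19) were higher and the thymidine kinase Tk1 was lower (29.4 against 10.1 CPM, -1.53). Myc, a growth-promoting transcription factor, was 4.66 CPM in OGA control and 38.5 CPM in OGT control (3.03, 2.77 to 3.33), and 7.40 to 21.6 CPM in the other OGA libraries. Of 18 immediate early genes 3 were higher, Myc and Klf6 (1.43) among them, and 2 were lower, Fos (-1.86) and Egr1 (-1.06). The Fos level of OGA-KO at 28 days (1.37 CPM) was similar to that of OGT control (1.39 CPM). Cyclin D1 (Ccnd1), which drives hepatocytes out of rest, was at 0.79 and at 0.05 against the 14-day OGA control. Of 20 targets of p53 there were 3 higher, Eda2r (1.94), Plk3 (1.14) and Aen (1.12, and 0.97 against the 14-day library), and Cdkn1a, a well-known target, was at 0.57. Among growth factor genes Tgfbr2, a receptor of the growth inhibitor TGF beta, was 18.3 CPM against 54.98 CPM (1.59), and Fst, an activin inhibitor, had 162 against 33 counts (-2.06).

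Further genes among the 12 lowest ratios at 10 CPM or more were Ctse, the aspartic protease cathepsin E (273 against 2 counts, -5.99 with an interval from -9.96 to -5.04), Gas1, a membrane protein first found in growth-arrested cells (720 against 21, -4.80), and Loxl4, a collagen cross-linking enzyme (409 against 18, -4.19). Ctse stood at 10.4 CPM in OGA control, 10.4 to 15.1 CPM in the other OGA libraries, 0.0866 CPM in OGT control and 0.967 CPM in OGT-KO. Gas1 was 27.5 CPM, 18.5 to 22.8 CPM, 0.910 CPM and 4.69 CPM in the same order. For both genes the OGT libraries lay under all OGA libraries, whereas for Loxl4 OGT-KO, at 13.6 CPM, lay within the OGA range. On the higher side were Cdcp1, a transmembrane protein (42 against 395, 3.35), and Pcp4l1 (103 against 680, 2.88).

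The targeted genes themselves were each under 2-fold apart between the controls. Ogt was 77.2 CPM in OGA control and 58.0 CPM in OGT control (-0.41, -0.51 to -0.31), and 73.4 to 79.4 CPM in the other OGA libraries. OGT control was below all 4, and OGT-KO was at 43.2 CPM. Oga was 67.2 CPM in OGA control and 60.7 CPM in OGT control (-0.15, positive by library totals), against 10.4 and 12.8 CPM in OGA-KO. In the path that makes the donor sugar of O-GlcNAc, Pgm3 was 14.4 CPM against 38.4 CPM (1.41) and Uap1l1 5.92 against 13.6 CPM (1.19), while Gnpda1, which turns glucosamine-6-phosphate back to fructose-6-phosphate, was lower (35.9 against 14.9 CPM, -1.26). Of 12 compared genes of O-GlcNAc metabolism these were the 3 past the rule, and Gnpda1 was at -0.80 against the 14-day OGA control.

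Genes next to the targeted loci were listed by their order in the RefSeq annotation (GRCm38.p6). Among the 10 genes with a row on each side of Ogt none of 20 passed the rule, and their ratios ran from -0.70 to 0.68. Of the 20 around Oga, 1 was higher, Mrpl43, a protein of the mitochondrial ribosome (38.1 against 83.8 CPM, 1.14). The other 3 past the rule were lower, Pitx3 (-1.03), Psd (-1.25) and Pdzd7 (-1.06). Over all compared genes 10.3% passed the rule. Mrpl43 held 38.1 to 42.0 CPM in all 4 OGA libraries and 59.2 CPM in OGT-KO, so both OGT libraries stood above. OGT control lay above all 4 OGA libraries for 38.1% of all compared genes. Pitx3 and Psd were at -0.30 and -0.52 against the 14-day OGA control.

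Genes often listed as differing in RNA level between inbred mouse strains were also checked, although all libraries carry the label C57BL/6. Of 13 compared, 3 were higher and none lower, with a median of 0.21. Wdfy1, an endosomal adaptor, was 13.1 CPM in OGA control, 35.5 CPM in OGT control, 12.3 to 14.8 CPM in the other OGA libraries and 37.7 CPM in OGT-KO (1.43). Trim30a (1.32) and Trim30d (1.48), neighbouring copies of an interferon-induced gene, were the others. Both OGT libraries were above the OGA libraries for these 3 genes. Genetic background was not tested, and Trim30a also belongs to the interferon list.

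Ribosomal protein genes and mitochondrial transcripts differed by small amounts across many members. Of 76 ribosomal protein genes 73 had a ratio below 0 and 1 passed the rule, with a median of -0.60, against -0.05 between the OGA controls. By library totals that median is less negative by the same 0.23. Their share of counts was 1.07% in OGA control and 0.839% in OGT control. The 13 mitochondrially encoded transcripts took 6.91% and 5.87%, and none passed. By transcript length, the 20% of genes with the shortest transcripts had a median ratio of -0.15 and the 20% with the longest 0.08. Across 11757 genes with a length Spearman's rho with the ratio was 0.136, and 0.192 for the ratio of the OGA controls, and with GC content it was -0.097 and -0.140. The part of length or RNA quality in the gene group values was not tested.

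Some genes were absent from 1 side. Among compared genes 3 were at 0 in OGT control: Cspg5, a chondroitin sulfate proteoglycan with 131 counts in OGA control, Nfasc, a cell adhesion protein, with 60, and Fcgbp, which binds antibodies in mucus, with 51. Against a floor of 3 counts in the library at 0 they were at least 38.5-fold, 17.6-fold and 15.0-fold lower. None was at 0 in OGA control. That contrast is limited by the table, in which every row held at least 28 counts over the 4 OGA libraries. A gene absent from the OGA line could thus have no row. OGT-KO held 10 counts of Cspg5, 18 of Nfasc and 2 of Fcgbp.

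Of the 56 rows at 0 in both OGT columns 38 had counts in OGA control of 28 days and 28 had at least 10 counts in each of the 4 OGA libraries. Eno1b, a near-identical copy of the glycolytic enzyme gene Eno1, had 855 counts in OGA control, 505 at 14 days and 894 and 624 in OGA-KO at 14 and 28 days. At the depth of OGT control the OGA control level corresponds to 754 counts, so the counted level is at least 251-fold lower. Reads of near-identical copies may have been split between them, and how both OGT columns came to 0 was not tested. Eno1 itself was 289 CPM in OGA control and 538 CPM in OGT control (0.90). Myom2, a protein of the muscle sarcomere, had 611, 474, 382 and 503 counts in the same order of OGA libraries, at least 179.6-fold lower. The other named rows were much smaller in counts in OGA control: Mup10 with 53, Htra4 with 51, Tmem28 with 38, Lingo4 with 36 and Zfp773 with 33. The remaining 18 of the 56 rows held counts only in OGA-KO at 28 days and bear on neither control. Every row of the table held at least 28 counts over the 4 OGA libraries, while 137 rows held fewer than 28 over the 2 OGT libraries, so the table holds no gene counted in the OGT line alone. The divisor of the deposited CPM exceeded the column total only in the OGT columns, by 22723 counts or 0.104% for OGT control.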

How the data were processed

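Each library held polyA RNA of liver tissue from 3 mice, prepared with the Tecan universal plus mRNA-seq kit and sequenced over 2 lanes per the labels' protocols. The deposited table gives raw counts per gene for 6 libraries, and beside them CPM values that the authors made from the same counts. STAR, Subread, edgeR and build mm39 are named in the submitters' processing notes, while versions, the strand setting and the row filter are not given in the sources used here. Whether a read shared by copies of a gene was counted is likewise not given.

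Ratios were computed from the deposited counts, not from the CPM values, with TMM factors over all 6 libraries (edgeR 4.0.16 in R 4.3.3), a prior count of 2 and exact conditional binomial intervals (scipy 1.17.1). The intervals and the floor of 3 counts cover counting error only, and PCR copies are not independent molecules. Totals ran from 20433100 to 29327722 counts, so 3 counts correspond to 0.107 to 0.13 CPM. With 1 library per group no test was possible. The ratio, its interval and the 2-fold rule were tried on simulated counts with counting error only. Those counts held no spread between mice or pools, so the trial does not bear on that spread. Symbols were matched for 12019 of 12027 rows, and promoters were read from the RefSeq table of GRCm38.p6.

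The members and the gene lists were chosen with earlier results of these data known. The genes named were Ogt, Oga and the Y-linked genes, the 12 highest and 12 lowest ratios at 10 CPM or more, the 5 most abundant genes past 2-fold each way, up to 4 members per list with the largest absolute ratio, 8 rows at 0 in both OGT columns and neighbours of the targeted genes past 2-fold. Predicted genes were passed over, and some genes that the rule names are not reported here. Chosen after their values were seen were Alb, Elovl3, Cyp2d9, Hsd3b5, Selenbp2, Cyp17a1, Acot3, Ghr, Serpina1b, Serpina1d, Hamp, Ifit1, Irf7, Irf9, Ifi27, Xaf1, Cd5l, Clec4f, Col1a1, Col3a1, Colec11, Krt7, Arntl, Per2, Nr1d2, Cry1, Bhlhe41, Dbp, Nfil3, Pck1, Ppargc1a, Fasn, Hmgcs1, Cyp27a1, Cyp8b1, Cyp4a10, Fabp1, Cpt1a, Glul, Cyp2e1, Lgr5, Sp5, Axin2, Cps1, Cyp2c39, Srxn1, Nqo1, Atf4, Ddit3, Hspa5, Mki67, Cdkn1a, Nfasc, Fcgbp, Znrf3, Nkd1, Rnf43, Tbx3, Fabp4, Serpina3m, Apcs, Fgb and Eno1. Alternatives were other scalings, prior counts, CPM minimums and reference libraries.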

Additional observations from a re-analysis of the deposited data

Results flagged for a closer look

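In data outside the comparison of the 2 controls, 18 rows held counts in OGA-KO at 28 days and 0 in the other 5 libraries, including OGA control of the same time. Their counts ran from 28 to 904, and the pancreatic enzyme genes Ctrb1 (904 counts) and Pnlip (727 counts) were among them.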

How the results depend on the processing

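Scaling by library totals gave 968 higher and 430 lower genes in place of 556 and 657. A minimum of 5 CPM left 359 higher and 469 lower genes, 828 in all, and 45 between the OGA controls. Prior counts of 0.5 and 10, RLE size factors, TMM of both libraries alone, no CPM minimum, TMM without the rows at 0 in both OGT columns and the divisor of the deposited CPM gave 1028 to 1257 genes. Counting in the rows at 0 in both OGT columns, chosen after seeing the data, gave 1230. Against the OGA control of 14 days the counts were 554 and 649, of which 379 and 514 were the same genes. Of the 201 genes named by rule none past 2-fold changed direction under these settings, while Cyp17a1, chosen after its values were seen, went from 1.39 to -0.13 against the 14-day library. Of those past 2-fold in the main setting, 20 fell under it against the 14-day library, 9 by library totals and 6 with a prior count of 10. The 5 CPM minimum left out 19 of them for their level, with their ratios unchanged. Of the neighbours of Ogt and Oga, 4 passed the rule within 10 genes on each side, 0 within 5 and 7 within 20. These windows held 20, 10 and 40 genes around each of the 2, beside 10.3% of all compared genes past the rule. No paired analysis was possible because each group had 1 library, and for the same reason no replicate could be left out. At 1 to 5 CPM counting error limits the ratios, and without replicates the spread between mice or pools is unknown.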

Other observations

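Of 16 hepatocyte marker genes 2 were at least 2-fold lower, Serpina1a and Hpx, 12 lay below all 4 OGA libraries against 37.4% of all genes, and the median log2 ratio was -0.43, with a summed level of 128611 CPM in OGT control against 152256 to 159806 CPM across the OGA libraries. None of 7 erythroid genes, which mark blood in the tissue, passed 2-fold, and 5 lay below all 4 OGA libraries against 37.4% of all genes. Their median was -0.43, against -0.67 between the OGA controls. None of 7 compared fetal liver genes passed, with a median of 0.40 and a summed level of 149 CPM in OGT control, 122 CPM in OGA control and 5629.9 CPM in OGT-KO. Of 21 heat shock genes 2 were lower and none higher, with a median of -0.04 that turns positive when libraries are scaled by their totals. Of 14 genes of the G1 phase 1 was higher, with a median of 0.05. Of 34 regeneration growth factor genes 2 were higher and 3 lower, with a median of -0.08 that also turns positive by library totals. Of 18 immediate early genes 3 were higher and 2 lower, with a median of -0.11 that turns positive as well.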
